A study of Homo sapiens with 12 samples.

Results

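The genes described here make cholesterol and fatty acids, or control and move these lipids, and they were followed in MD901 lymphoma cells carrying hairpins against CREBBP. They were a list of 36 named genes, and each was read from the most abundant of its rows on a primary chromosome, in an expression table of 24181 rows. All 36 had a row, and 35 reached a mean of at least 1 FPKM over the 12 libraries, as did 11757 rows of the whole table. The exception was ABCG1, which encodes a cholesterol exporter and lay between 0 and 0.163 FPKM in the 12 libraries. It was not tested. By role, the 35 tested genes were 8 of the mevalonate pathway and its prenyl branch, 11 of the steps from squalene to cholesterol, 7 of fatty acid synthesis, 5 that control the SREBP factors and 4 of cholesterol transport and efflux.

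MD901 is an established line of human germinal centre lymphoma cells of the diffuse large B-cell kind. Its CREBBP, the gene of a histone acetyltransferase, is wild type. Each of 4 groups had 3 libraries of total RNA depleted of ribosomal RNA, from cells grown in IMDM with serum. One group carried a scramble hairpin, and the other groups carried the hairpins shCREBBP.1027, shCREBBP.3753 and shCREBBP.572. One label field spells the number of the first hairpin with an extra digit. The labels do not state that replicates were grown apart, and a p-value here covers the spread among libraries alone, which may be technical. Nor do they give the vector, the time after its delivery or a selection. The 3 hairpin groups were compared with the same 3 scramble libraries, so their differences from scramble are not independent of each other.

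Cells build cholesterol from acetyl-CoA through mevalonate, the isoprenoid pyrophosphates and squalene, and they build fatty acids from the same acetyl-CoA through malonyl-CoA. Transcription of both branches is driven by the SREBP factors, which SCAP escorts from the endoplasmic reticulum to the Golgi for cleavage when sterols are low and which INSIG proteins hold back when sterols are high. SREBP-2 acts mainly on the sterol branch and SREBP-1c mainly on the fatty acid branch. Proliferating B cells draw on both branches for membranes and for prenylation of small GTPases.

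CREBBP RNA itself did not pass the test as lower with any of the 3 hairpins, so the groups are called by their labels. CREBBP (chromosome 16, 3775056 to 3930121) held 13.7, 7.10 and 5.82 FPKM in the scramble libraries. It held 11.4, 11.7 and 12.6 FPKM with shCREBBP.1027, 5.92, 6.16 and 6.10 FPKM with shCREBBP.3753, and 7.99, 7.53 and 6.91 FPKM with shCREBBP.572. Its log2 differences were 0.47 ± 0.21, -0.40 ± 0.21 and -0.14 ± 0.21 (SE, with limma adjusted p = 0.104, 0.177 and 0.697). The negative differences depend on scramble replicate 1, at 13.7 FPKM, in size and, with shCREBBP.572, also in sign. The shCREBBP.3753 libraries lay between the other scramble values, 5.82 and 7.10 FPKM, and those with shCREBBP.572 lay near or above the higher of these. All shCREBBP.1027 libraries lay above both of these values and below scramble replicate 1. Compared directly, CREBBP was lower than with shCREBBP.1027 both with shCREBBP.3753 (-0.87 ± 0.21, adjusted p = 0.00678) and with shCREBBP.572 (-0.61 ± 0.21, adjusted p = 0.0385). Spearman correlations across rows were 0.932 to 0.967 between scramble libraries and 0.970 to 0.985 between libraries of 1 hairpin. Scramble replicate 3 held 6 rows above 200000 FPKM, which brought its total to 4978528 FPKM against 538076 to 722976 elsewhere. Upper quartiles were alike, at 9.82 to 10.9 FPKM, and the number of reads per library is unknown. The 6 B-cell markers summed to between 210 and 262 FPKM with scramble. The sums lay between 216 and 232 FPKM for shCREBBP.1027, between 317 and 341 for shCREBBP.3753, and between 168 and 176 for shCREBBP.572. T and NK cell markers summed to at most 1.40 FPKM, myeloid markers to at most 3.34 and fibroblast or epithelial markers to at most 8.07 in any library. Of the 5 B-cell markers tested, 3 were lower with shCREBBP.572, 2 were higher with shCREBBP.3753 and 2 were lower with shCREBBP.1027, where 10.8%, 16.1% and 22.7% of all rows were called in those directions. The part of these differences in the results on lipid genes was not tested. In bulk RNA a smaller share of some cells and less RNA per cell cannot be told apart.

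Most sterol genes were lower with shCREBBP.572, and most fatty acid genes were lower with every hairpin. A gene is called lower or higher where its difference in log2(FPKM + 1) passed a Benjamini-Hochberg adjusted p of 0.05 in limma over all 11757 rows. Folds below are taken from that difference, so they are ratios of FPKM + 1 and not of FPKM. With shCREBBP.572, 13 of the 19 sterol genes were lower and 1 was higher, with a median log2 difference of -0.66 against 0.01 over all rows. With shCREBBP.1027, 5 sterol genes were lower and 4 higher (median 0.07, all rows -0.03), and with shCREBBP.3753, 2 were lower and 3 higher (median -0.15, all rows 0.03). The shares of all rows called lower and higher were 22.7% and 16.5% with shCREBBP.1027 and 13.2% and 16.1% with shCREBBP.3753. The sterol counts with these hairpins are near those shares. With shCREBBP.572 the shares were 10.8% and 8.99%. The 7 fatty acid genes were lower or not called with every hairpin: 5 were lower with shCREBBP.1027 (median -0.72), 5 with shCREBBP.3753 (median -0.55) and 4 with shCREBBP.572 (median -0.44), and none was higher.

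Over all 35 tested genes, 12 were lower and 4 higher with shCREBBP.1027, where 22.7% of all rows were lower and 16.5% higher. That split of 2671 lower and 1938 higher rows turned to 2457 and 2723 under quantile normalization. With shCREBBP.3753, 9 were lower and 4 higher, against 13.2% and 16.1% of all rows. With shCREBBP.572, 20 were lower and 2 higher, against 10.8% and 8.99% of all rows. In the mean of the 3 hairpins, 17 were lower and 2 higher, against 14.6% and 11.5% of all rows. The 2 higher genes were GGPS1 and ABCA1, and neither was called without scramble replicate 2 or without scramble replicate 3. The 9 hairpin libraries were also fitted as 1 group, so that the differences between hairpins counted as error. In that fit 1 gene stayed lower, ELOVL6, and none was higher. Calls were few over the whole table too, with 105 of 11757 rows lower and 101 higher. Lower with each of the 3 hairpins were 5 genes, EBP, ACLY, ELOVL6, SCD and FADS1, and higher with each were 0. The share of all rows called with each was not computed. Because the 3 comparisons share the scramble libraries, the 5 are a description and no measure of how unusual these genes are.

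**Figure D1:**
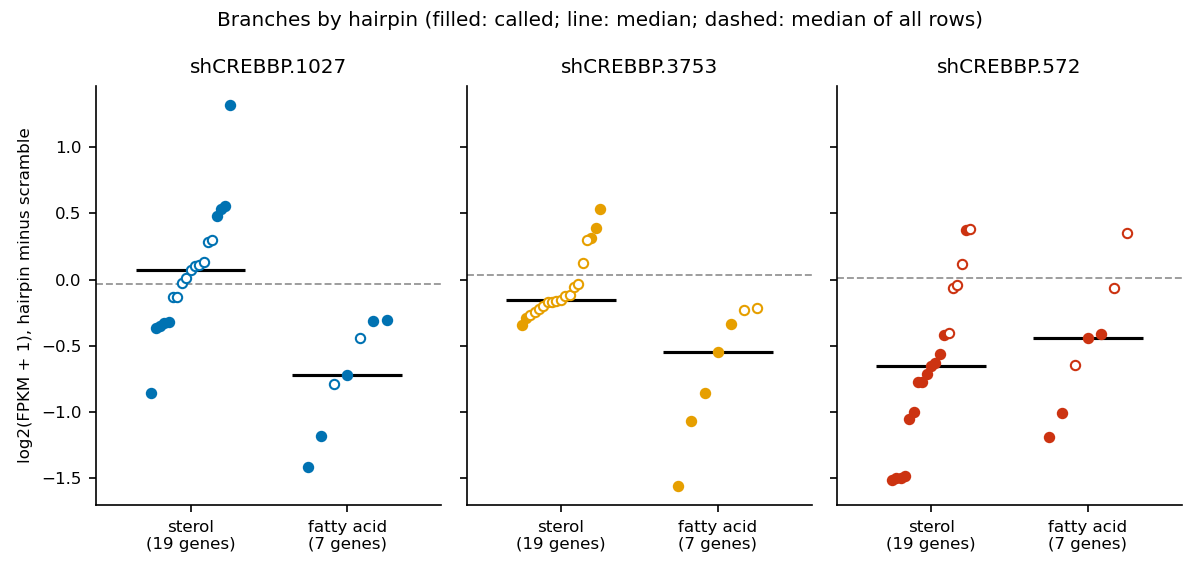
Differences from scramble in log2(FPKM + 1) of the 19 sterol genes and 7 fatty acid genes, in a panel for each hairpin. Filled points passed an adjusted p of 0.05, black lines are branch medians and dashed lines the median of all rows. The sterol median lies at 0.07, -0.15 and -0.66 from left to right, and the fatty acid median at -0.72, -0.55 and -0.44.

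The hairpins also differed from each other when compared directly, without the scramble libraries in the difference. An F test between the 3 hairpins called 28 of the 35 genes, where it called 56.4% of all rows. Between shCREBBP.572 and shCREBBP.1027, 18 of the 35 were lower with shCREBBP.572 and 7 higher, against 17.6% and 23.9% of all rows. Of these 18, 13 were sterol genes, whose median difference was -0.75. Between shCREBBP.572 and shCREBBP.3753, 15 were lower and 3 higher, against 18% and 14.7% of all rows, and 13 of the 15 were again sterol genes (median -0.58). The 3 higher fell to 1 without shCREBBP.3753 replicate 3 or without any 1 of the shCREBBP.572 libraries. Between shCREBBP.3753 and shCREBBP.1027, 5 were lower and 8 higher, against 15.3% and 25.3% of all rows, and the 5 became 10 without scramble replicate 1, which enters only the estimate of spread, and 3 without shCREBBP.1027 replicate 1. The split over all rows in this pair, 1796 lower and 2979 higher, was 2601 and 2629 under quantile normalization and 2438 and 2606 under median of ratios scaling, each with 9 of the 35 genes lower and 6 higher. In the fatty acid branch these same 3 pairs gave medians of 0.25, 0.11 and 0.09.

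Sterol genes are textbook targets of SREBP-2, which binds sterol regulatory elements with help from NF-Y at CCAAT boxes and Sp1 at GC boxes, so the promoters were read. RefSeq windows on GRCh38.p14, from 250 bases before to 50 after the start, were matched for 31 of the 36 genes, 16 of them sterol genes. The letters CCAAT, or ATTGG on the other strand, stood in 12 of the 16 sterol windows and in 17 of the 31, against 35.7% of 27305 genes with a window and 37.7% of the 8328 of these that were tested. Of 10 sterol genes with a window that were lower with shCREBBP.572, 9 held them. The first window listed for each gene was read. IDI1, the gene of these 10 without a match, held the letters in its 2 other windows. Among sterol genes not lower with shCREBBP.572, TM7SF2, HSD17B7 and SC5D held the letters in the window read, and PMVK, GGPS1 and CYP51A1 did not. A link between the letters and the fall was not tested. The letters TCACNCCAC, on either strand, stood in 1 of the 31 windows, that of SREBF2, against 1.15% of all windows and 1.22% of tested ones. They stood in 0 of the 16 sterol windows. GGGCGG stood in 28 of the 31 (44.6% and 69.3%), and also in 9 of the 10 sterol genes lower with shCREBBP.572. The E-box CACGTG stood in 5 of the 31 (7.43% and 10.4%). A match is a run of letters and no measure of binding. Only these exact letters in these windows were read, so a window without a match does not show that a gene lacks such an element.
Shown are the 250 bases before the start, 5′ to 3′ on the strand of the gene, for HMGCS1, MVD, SREBF2 and FADS1. HMGCS1 and MVD had the largest falls with shCREBBP.572 among sterol genes with a window. SREBF2 held the TCACNCCAC match, and FADS1 is a fatty acid gene with neither CCAAT nor TCACNCCAC in its window. They were chosen after the values and matches were seen. Capitals mark CCAAT or ATTGG and, in SREBF2, the longer TCACNCCAC match.
HMGCS1, chr5:43313413-43313662, minus strand: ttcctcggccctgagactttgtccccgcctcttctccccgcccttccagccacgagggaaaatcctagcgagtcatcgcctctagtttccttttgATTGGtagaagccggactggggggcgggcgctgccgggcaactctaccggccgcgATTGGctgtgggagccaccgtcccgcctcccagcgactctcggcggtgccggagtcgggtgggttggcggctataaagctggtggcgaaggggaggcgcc
MVD, chr16:88663092-88663341, minus strand: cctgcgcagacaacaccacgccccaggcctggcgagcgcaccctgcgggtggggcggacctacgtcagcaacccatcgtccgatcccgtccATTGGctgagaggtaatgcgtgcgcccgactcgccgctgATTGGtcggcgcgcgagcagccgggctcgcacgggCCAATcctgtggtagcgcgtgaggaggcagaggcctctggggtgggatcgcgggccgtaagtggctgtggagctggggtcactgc
SREBF2, chr22:41832855-41833104, plus strand: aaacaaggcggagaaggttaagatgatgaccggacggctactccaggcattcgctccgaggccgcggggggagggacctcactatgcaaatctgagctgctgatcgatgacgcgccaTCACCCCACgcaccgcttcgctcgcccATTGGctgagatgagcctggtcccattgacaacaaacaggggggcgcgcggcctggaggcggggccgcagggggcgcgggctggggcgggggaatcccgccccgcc
FADS1, chr11:61817004-61817253, minus strand: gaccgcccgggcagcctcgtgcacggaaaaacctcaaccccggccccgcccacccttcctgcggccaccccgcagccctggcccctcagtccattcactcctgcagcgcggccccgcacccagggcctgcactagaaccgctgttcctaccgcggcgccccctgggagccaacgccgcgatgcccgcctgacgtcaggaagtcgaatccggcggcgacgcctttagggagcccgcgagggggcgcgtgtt

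The mevalonate genes were lower with shCREBBP.572 in 6 of 8 cases, against 10.8% of all rows, with a median log2 difference of -0.74. The hg19 interval of each row, with 1 as the first base, follows the gene name and can extend past the gene. HMGCS1 (chromosome 5, 43287572 to 43313614), the synthase that makes HMG-CoA, held 37.2, 45.8 and 43.6 FPKM with scramble, 39.6, 37.9 and 37.6 with shCREBBP.1027, 35.5, 30.6 and 36.9 with shCREBBP.3753, and 14.8, 13.0 and 15.0 with shCREBBP.572. The shCREBBP.572 libraries lay below all 9 others, and those with shCREBBP.3753 lay just below the scramble range. HMGCS1 was 2.82-fold lower with shCREBBP.572 (log2 difference -1.50 ± 0.10, adjusted p = 2.95e-06). With shCREBBP.3753 it was lower by a smaller step (-0.29 ± 0.10, adjusted p = 0.0407), and this call held under 11 of 23 alternative settings. ACAT2, the cytosolic thiolase of the first step, fell from 44.5 ± 5.43 FPKM with scramble to 25.5 ± 1.55 with shCREBBP.572 (SD, n = 3 each; -0.78 ± 0.09, adjusted p = 0.000178). It was not called with the other hairpins (-0.02 and -0.20).

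MVD and MVK rose with shCREBBP.1027 and fell with shCREBBP.572. MVD (chromosome 16, 88718348 to 88729539), the decarboxylase that makes isopentenyl pyrophosphate, held 18.5, 22.6 and 26.9 FPKM with scramble, 51.5, 82.0 and 44.6 with shCREBBP.1027, 25.0, 14.9 and 21.8 with shCREBBP.3753, and 7.70, 7.98 and 6.11 with shCREBBP.572. Every shCREBBP.1027 library lay above the other 9 and every shCREBBP.572 library below them, while the shCREBBP.3753 libraries overlapped scramble. The differences were 1.32 ± 0.23 with shCREBBP.1027 (2.49-fold higher, adjusted p = 0.00104), -0.15 ± 0.23 with shCREBBP.3753 (adjusted p = 0.662) and -1.51 ± 0.23 with shCREBBP.572 (2.85-fold lower, adjusted p = 0.00109). MVK (chromosome 12, 110011500 to 110036226), mevalonate kinase, held 10.6, 15.2 and 17.2 FPKM with scramble, 20.6, 21.7 and 20.8 with shCREBBP.1027, 12.7, 13.9 and 13.8 with shCREBBP.3753, and 11.4, 7.34 and 7.89 with shCREBBP.572. The shCREBBP.1027 libraries lay above scramble, and 1 of the 3 shCREBBP.572 libraries lay inside the scramble range. MVK differed by 0.55 ± 0.17 with shCREBBP.1027 (adjusted p = 0.0224) and by -0.63 ± 0.17 with shCREBBP.572 (adjusted p = 0.0223), and each call held under 17 of 23 alternatives. PMVK, the next kinase of the pathway, was not called with any hairpin (0.11, -0.25 and 0.38).

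IDI1 (chromosome 10, 1064847 to 1097046), the isomerase of isopentenyl pyrophosphate, had the smallest p of the 35 genes between shCREBBP.572 and shCREBBP.3753. It held 33.5, 39.1 and 38.2 FPKM with scramble, 28.5, 31.4 and 25.4 with shCREBBP.1027, 45.3, 43.0 and 50.05 with shCREBBP.3753, and 13.6, 13.2 and 10.9 with shCREBBP.572. The 4 groups did not overlap, in the order shCREBBP.572, shCREBBP.1027, scramble and shCREBBP.3753 from low to high. Against scramble IDI1 was 2.79-fold lower with shCREBBP.572 (-1.48 ± 0.11, adjusted p = 7.13e-06) and lower with shCREBBP.1027 (-0.37 ± 0.11, adjusted p = 0.0174). The shCREBBP.1027 call was lost without scramble replicate 2, scramble replicate 3 or shCREBBP.1027 replicate 3, and with the rows of IDI1 summed (adjusted p = 0.0536 to 0.102). It was called higher with shCREBBP.3753 (0.31 ± 0.11, adjusted p = 0.0455), a call that held under 8 of 23 alternatives. Between shCREBBP.572 and shCREBBP.3753 the difference was -1.79 ± 0.11 (adjusted p = 8.44e-07).

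The prenyl synthases parted from each other. FDPS (chromosome 1, 155278518 to 155301034), which makes farnesyl pyrophosphate for sterols and for prenylation, held 131, 193 and 185 FPKM with scramble, 84.7, 101 and 90.6 with shCREBBP.1027, 135, 136 and 159 with shCREBBP.3753, and 99.7, 96.8 and 109 with shCREBBP.572. It lay below the scramble range with shCREBBP.1027 and shCREBBP.572 and inside it with shCREBBP.3753. FDPS fell by 0.86 ± 0.14 on the log2 scale with shCREBBP.1027 (adjusted p = 0.000507) and by 0.71 ± 0.14 with shCREBBP.572 (adjusted p = 0.00391), with a direct difference between these hairpins of 0.15 (95% interval -0.15 to 0.44). FDPS has processed pseudogenes, and how reads were divided between copies is not given in the sources used here. GGPS1, which extends farnesyl to geranylgeranyl pyrophosphate outside the path to cholesterol, was the 1 sterol gene called higher with shCREBBP.572 (0.37 ± 0.11, adjusted p = 0.0413). Its mean rose from 9.95 ± 1.32 to 13.1 ± 1.12 FPKM (SD, n = 3 each), with differences of 0.30 and 0.30 with the other hairpins that were not called. The GGPS1 call held under 11 of 23 alternatives and was lost without scramble replicate 2, scramble replicate 3, shCREBBP.1027 replicate 2, shCREBBP.3753 replicate 1 or any 1 of the shCREBBP.572 libraries.

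**Figure D2:**
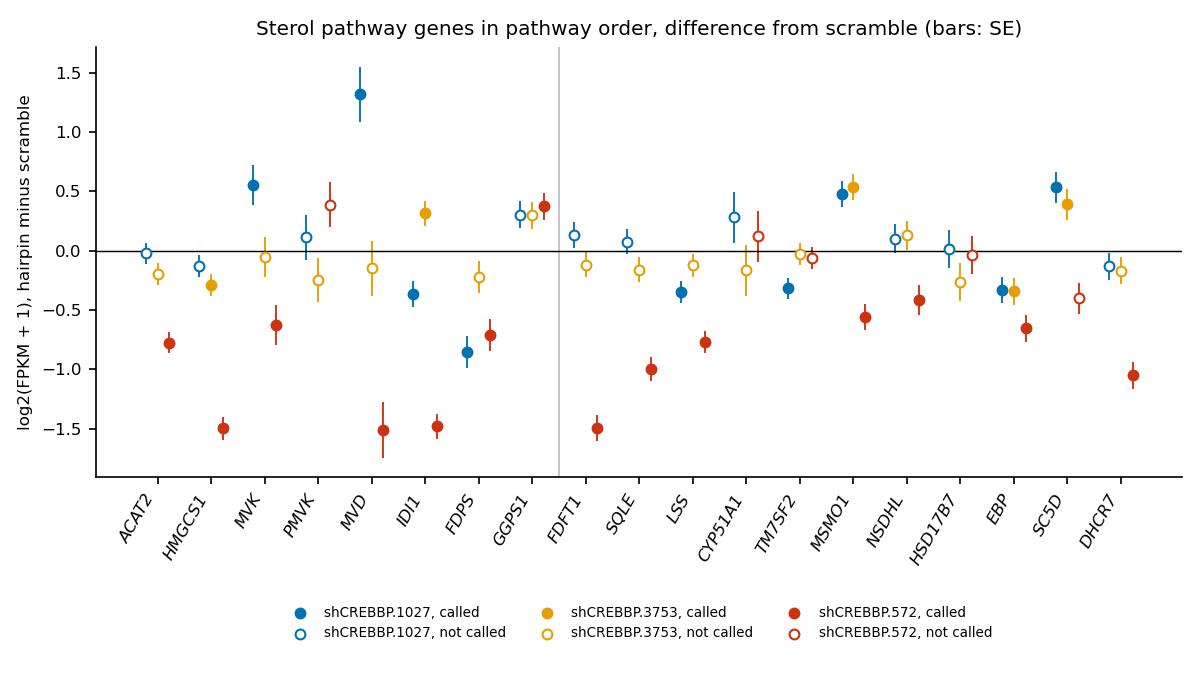
Differences from scramble in log2(FPKM + 1) for the 19 sterol genes in pathway order, with the mevalonate and prenyl genes left of the grey line, and bars of 1 SE. Filled points passed an adjusted p of 0.05. With shCREBBP.572, 13 genes lie below 0 and are filled, and MVD stands at 1.32 with shCREBBP.1027 and at -1.51 with shCREBBP.572.

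From squalene to cholesterol, 7 of 11 genes were lower with shCREBBP.572 and none was higher, with a median of -0.56. Of all rows, 10.8% were lower and 8.99% higher with this hairpin. FDFT1 (chromosome 8, 11653082 to 11696818), squalene synthase and the first enzyme committed to sterols, held 59.7, 72.6 and 83.1 FPKM with scramble, 76.9, 79.5 and 78.1 with shCREBBP.1027, 61.9, 62.0 and 73.2 with shCREBBP.3753, and 24.6, 24.0 and 25.1 with shCREBBP.572. The shCREBBP.572 libraries stood apart below all others, and the other hairpins lay within the scramble range. FDFT1 was 2.82-fold lower with shCREBBP.572 (-1.50 ± 0.11, adjusted p = 7.21e-06), with 0.13 ± 0.11 and -0.12 ± 0.11 for the other hairpins. SQLE, squalene epoxidase, fell from 44.6 ± 4.74 to 21.9 ± 2.89 FPKM (-0.999 ± 0.10, adjusted p = 7.98e-05), and DHCR7, a reductase of the last steps, from 24.2 ± 2.64 to 11.2 ± 1.42 FPKM (-1.05 ± 0.11, adjusted p = 0.000103; SD, n = 3 each). Neither SQLE nor DHCR7 was called with shCREBBP.1027 (0.07 and -0.13) or shCREBBP.3753 (-0.16 and -0.17). LSS, the cyclase that makes lanosterol, was lower with shCREBBP.572 (-0.77 ± 0.10, adjusted p = 0.000255) and with shCREBBP.1027 (-0.35 ± 0.10, adjusted p = 0.013).

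EBP, a sterol isomerase, was the only sterol gene lower with each of the 3 hairpins. Its mean was 281 ± 45.9 FPKM with scramble and 221 ± 18.5 FPKM with shCREBBP.1027. It was 219 ± 6.77 FPKM with shCREBBP.3753 and 176 ± 6.23 FPKM with shCREBBP.572 (SD, n = 3 each). The differences were -0.33, -0.34 and -0.66 (adjusted p = 0.0355, 0.038 and 0.00194), and the calls held under 15, 11 and 23 of 23 alternatives. NSDHL, which removes a C4 methyl group with its partners, was lower with shCREBBP.572 (-0.42 ± 0.12, adjusted p = 0.0359), a call that held under 12 of 23 alternatives.

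MSMO1, the C4 methyl oxidase, and SC5D, the desaturase near the end of the pathway, were higher with shCREBBP.1027 and with shCREBBP.3753. MSMO1 (chromosome 4, 166248818 to 166264314) held 23.7, 30.2 and 32.5 FPKM with scramble, 40.4, 38.7 and 41.3 with shCREBBP.1027, 44.0, 39.9 and 41.8 with shCREBBP.3753, and 21.7, 17.4 and 18.4 with shCREBBP.572. Both of the first hairpins lay above the scramble range and shCREBBP.572 below it. Its differences were 0.48 ± 0.11, 0.54 ± 0.11 and -0.56 ± 0.11 (adjusted p = 0.00589, 0.00467 and 0.00496). SC5D differed by 0.53 ± 0.13 with shCREBBP.1027 (adjusted p = 0.00745) and 0.39 ± 0.13 with shCREBBP.3753 (adjusted p = 0.0441, held under 9 of 23 alternatives). With shCREBBP.572 SC5D was at -0.40 ± 0.13, just outside the threshold (adjusted p = 0.0523).

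CYP51A1, the lanosterol demethylase, lay at 0.829 to 2.12 FPKM in the 12 libraries, and HSD17B7, a sterol ketone reductase, at 7.51 to 13.4 FPKM, and neither was called with any hairpin. TM7SF2, a C14 reductase, shares its row with VPS51, so its value cannot be told apart from that gene; the row was lower with shCREBBP.1027 (-0.32 ± 0.09, adjusted p = 0.0163) and not called with the others (-0.03 and -0.06). The 2 sterol genes lower with shCREBBP.3753, HMGCS1 and EBP, depended on which libraries entered the fit. The count rose to 6 without scramble replicate 1 and was 0 or 1 when any 1 of the other 11 libraries was left out. The 3 higher with shCREBBP.3753 fell to 1 without scramble replicate 3, shCREBBP.1027 replicate 1 or any 1 of the shCREBBP.3753 libraries. The 5 lower with shCREBBP.1027 fell to 3 without scramble replicate 2 and to 2 without scramble replicate 3 or shCREBBP.1027 replicate 3. The 13 lower with shCREBBP.572 ranged from 11 to 14 over the same left-out libraries.

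The fatty acid genes had their largest called differences at FADS1 with shCREBBP.1027, at FASN with shCREBBP.3753 and at ELOVL6 with shCREBBP.572. Without scramble replicate 1, ELOVL6 (-1.09) and FASN (-1.08) were about level with shCREBBP.3753. ACLY (chromosome 17, 40023172 to 40075284), the citrate lyase that supplies cytosolic acetyl-CoA to both branches, held 136, 144 and 145 FPKM with scramble, 64.0, 61.0 and 61.0 with shCREBBP.1027, 111, 112 and 114 with shCREBBP.3753, and 108, 102 and 110 with shCREBBP.572. All 9 hairpin libraries lay below scramble, and shCREBBP.1027 lay far below the other hairpins. ACLY was 2.27-fold lower with shCREBBP.1027 (-1.18 ± 0.06, adjusted p = 2.81e-07) and lower by 1.26-fold and 1.33-fold with the others (adjusted p = 0.00206 and 0.000794). Directly, shCREBBP.3753 and shCREBBP.572 exceeded shCREBBP.1027 by 0.85 ± 0.06 and 0.77 ± 0.06 (adjusted p = 1.8e-06 and 4.22e-06). ACACA, the acetyl-CoA carboxylase that makes malonyl-CoA, was lower with shCREBBP.1027 (-0.31 ± 0.11, adjusted p = 0.0388; held under 11 of 23 alternatives) and not called with the others (-0.22 and -0.06).

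The call of FASN (chromosome 17, 80036056 to 80056216), the fatty acid synthase, held with shCREBBP.3753 alone and its control values were spread widely. It held 100.2, 38.8 and 33.7 FPKM with scramble, 31.8, 25.3 and 30.4 with shCREBBP.1027, 19.7, 18.2 and 12.8 with shCREBBP.3753, and 36.9, 33.4 and 27.1 with shCREBBP.572. Scramble replicate 1 stood far above the other 11 libraries, and the shCREBBP.3753 libraries stood below them all. The difference was -1.56 ± 0.33 with shCREBBP.3753 (2.94-fold lower, adjusted p = 0.00463) and -1.08 without scramble replicate 1 (adjusted p = 0.00144). With shCREBBP.1027 and shCREBBP.572 it was -0.79 ± 0.33 and -0.65 ± 0.33, not called, and -0.31 and -0.16 without that library. With shCREBBP.1027 FASN was called without scramble replicate 3; the high library is then 1 of 2 controls (-1.08, adjusted p = 0.0318).

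ELOVL6, SCD and FADS1, which lengthen and desaturate fatty acids, were lower with all 3 hairpins. ELOVL6 (chromosome 4, 110968903 to 111120386), an elongase of palmitate, held 32.8, 35.95 and 34.1 FPKM with scramble, 23.0, 18.3 and 20.2 with shCREBBP.1027, 15.98, 15.7 and 15.9 with shCREBBP.3753, and 14.1, 12.9 and 16.7 with shCREBBP.572. SCD (chromosome 10, 102106772 to 102124588), the stearoyl-CoA desaturase, held 120, 116 and 117 FPKM with scramble, 92.7, 97.0 and 94.5 with shCREBBP.1027, 64.5, 61.3 and 67.8 with shCREBBP.3753, and 62.2, 55.8 and 56.7 with shCREBBP.572. For both genes scramble was highest, shCREBBP.1027 was next, and the last 2 hairpins overlapped at the bottom. ELOVL6 differed by -0.72, -1.06 and -1.19 (adjusted p = 0.000205, 4.04e-05 and 1.88e-05, SE 0.10 each). SCD differed by -0.31, -0.86 and -1.004 (adjusted p = 0.00323, 1.31e-05 and 3.7e-06, SE 0.07 each). The difference of SCD between shCREBBP.3753 and shCREBBP.1027 was itself called (-0.55 ± 0.07, adjusted p = 6.55e-05). The SCD call with shCREBBP.1027 was lost under quantile normalization (adjusted p = 0.0861).

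FADS1 (chromosome 11, 61567097 to 61634826), the delta-5 desaturase of polyunsaturated fatty acids, had the opposite order. It held 8.90, 10.1 and 10.6 FPKM with scramble, 3.18, 3.12 and 2.89 with shCREBBP.1027, 6.24, 6.27 and 6.72 with shCREBBP.3753, and 6.42, 7.27 and 7.27 with shCREBBP.572. The shCREBBP.1027 libraries were lowest, and the other hairpins overlapped each other between them and scramble. FADS1 was 2.67-fold lower with shCREBBP.1027 (-1.42 ± 0.09, adjusted p = 9.36e-07), and differed by -0.55 ± 0.09 and -0.44 ± 0.09 with shCREBBP.3753 and shCREBBP.572 (adjusted p = 0.000948 and 0.0045). The last of these calls was lost with only 2 groups in the fit (adjusted p = 0.0529). Its neighbour FADS2, the delta-6 desaturase, has the same assembled interval, and reads could have been divided between them. FADS2 lay at 0.713 to 2.60 FPKM and was not called against scramble (-0.44, -0.23 and 0.35), but it was higher with shCREBBP.572 than with shCREBBP.1027 (0.79 ± 0.20, adjusted p = 0.00705).

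**Figure D3:**
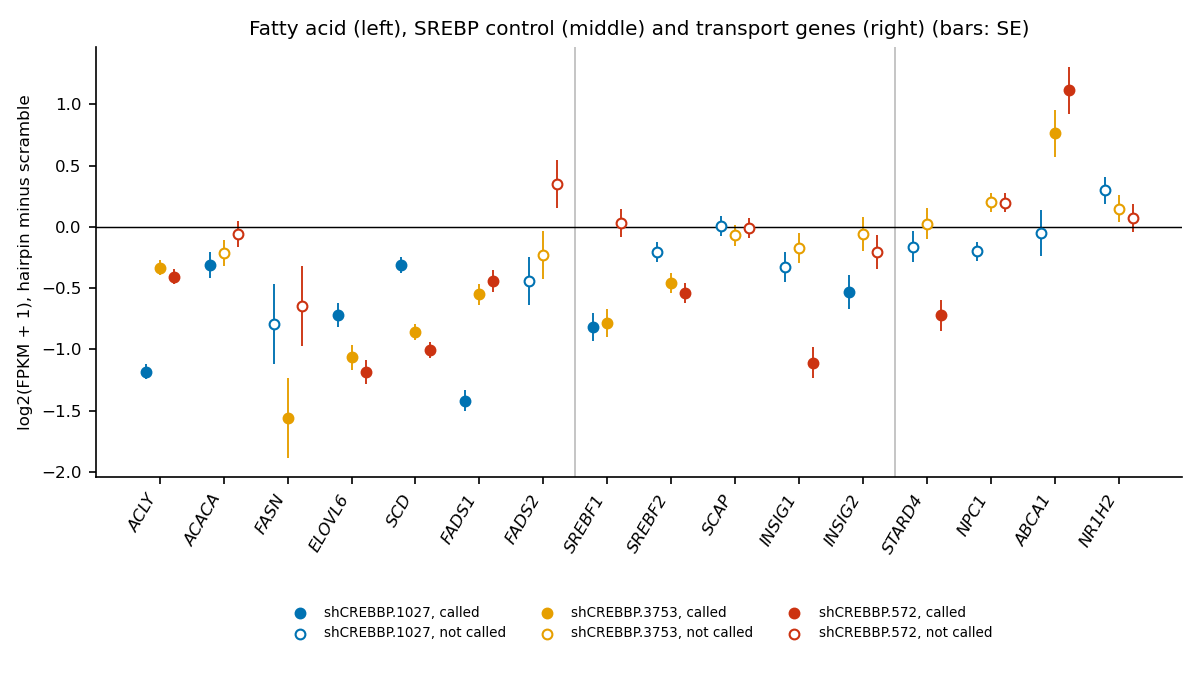
Differences from scramble in log2(FPKM + 1) for the fatty acid, SREBP control and transport genes, with bars of 1 SE and filled points where the adjusted p was under 0.05. FASN has the widest error, 0.33, and ELOVL6 and SCD lie below 0 with every hairpin, from -0.31 to -1.19.

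Among the genes that control the pathway, SREBF1 and SREBF2 differed in which hairpin they fell with. SREBF1 (chromosome 17, 17584787 to 17740325), which encodes SREBP-1, held 14.6, 11.4 and 11.3 FPKM with scramble, 6.603, 5.90 and 7.30 with shCREBBP.1027, 7.56, 6.64 and 6.11 with shCREBBP.3753, and 13.0, 13.3 and 11.7 with shCREBBP.572. The first 2 hairpins lay below scramble and overlapped each other, and shCREBBP.572 lay inside the scramble range. SREBF1 fell by 0.82 ± 0.11 and 0.79 ± 0.11 on the log2 scale (adjusted p = 0.000224 and 0.000582) and differed by 0.03 ± 0.11 with shCREBBP.572 (95% interval -0.22 to 0.28). Directly, it was higher with shCREBBP.572 than with shCREBBP.1027 by 0.85 (adjusted p = 0.000148) and than with shCREBBP.3753 by 0.82 (adjusted p = 0.000276).

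SREBF2 (chromosome 22, 42229083 to 42303312), which encodes SREBP-2 and whose promoter is printed above, held 68.7, 58.6 and 58.9 FPKM with scramble, 58.3, 49.5 and 53.0 with shCREBBP.1027, 43.5, 44.6 and 46.5 with shCREBBP.3753, and 40.8, 43.2 and 42.5 with shCREBBP.572. The 4 groups did not overlap, with scramble highest and shCREBBP.572 lowest. The differences were -0.21 ± 0.08 (not called, adjusted p = 0.0654), -0.46 ± 0.08 (adjusted p = 0.00192) and -0.54 ± 0.08 (adjusted p = 0.00089). With shCREBBP.1027 SREBF2 was called lower without shCREBBP.1027 replicate 1 (-0.27, adjusted p = 0.0388). Between shCREBBP.572 and shCREBBP.3753, SREBF2 differed directly by -0.09 (95% interval -0.27 to 0.09). Whether its level bears on the sterol counts with these hairpins was not tested.

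INSIG1 (chromosome 7, 155089486 to 155102794), which retains SCAP in the endoplasmic reticulum and is itself an SREBP target, held 48.8, 70.5 and 69.5 FPKM with scramble, 46.9, 51.8 and 49.1 with shCREBBP.1027, 56.9, 51.3 and 57.1 with shCREBBP.3753, and 29.2, 26.5 and 29.3 with shCREBBP.572. The shCREBBP.572 libraries lay below all others, and scramble replicate 1 lay among the other hairpins. INSIG1 was 2.15-fold lower with shCREBBP.572 (-1.11 ± 0.12, adjusted p = 0.000124). With shCREBBP.1027 and shCREBBP.3753 it was at -0.33 ± 0.12 and -0.17 ± 0.12, not called (adjusted p = 0.0527 and 0.316), and called lower at -0.50 and -0.34 without scramble replicate 1 (adjusted p = 0.000272 and 0.00453).

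INSIG2 (chromosome 2, 118846050 to 118867597), the second retention protein, held 13.6, 8.06 and 9.67 FPKM with scramble, 7.03, 6.71 and 6.57 with shCREBBP.1027, 10.1, 9.001 and 10.3 with shCREBBP.3753, and 8.67, 8.72 and 8.83 with shCREBBP.572. It lay below scramble with shCREBBP.1027 (-0.53 ± 0.14, adjusted p = 0.0104) and within its range with the others (-0.06 and -0.20). SCAP, the escort protein, lay at 26.1 to 32.4 FPKM in the 12 libraries and was not called with any hairpin. Its differences had 95% intervals of -0.18 to 0.19, -0.25 to 0.11 and -0.19 to 0.17.

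**Figure D4:**
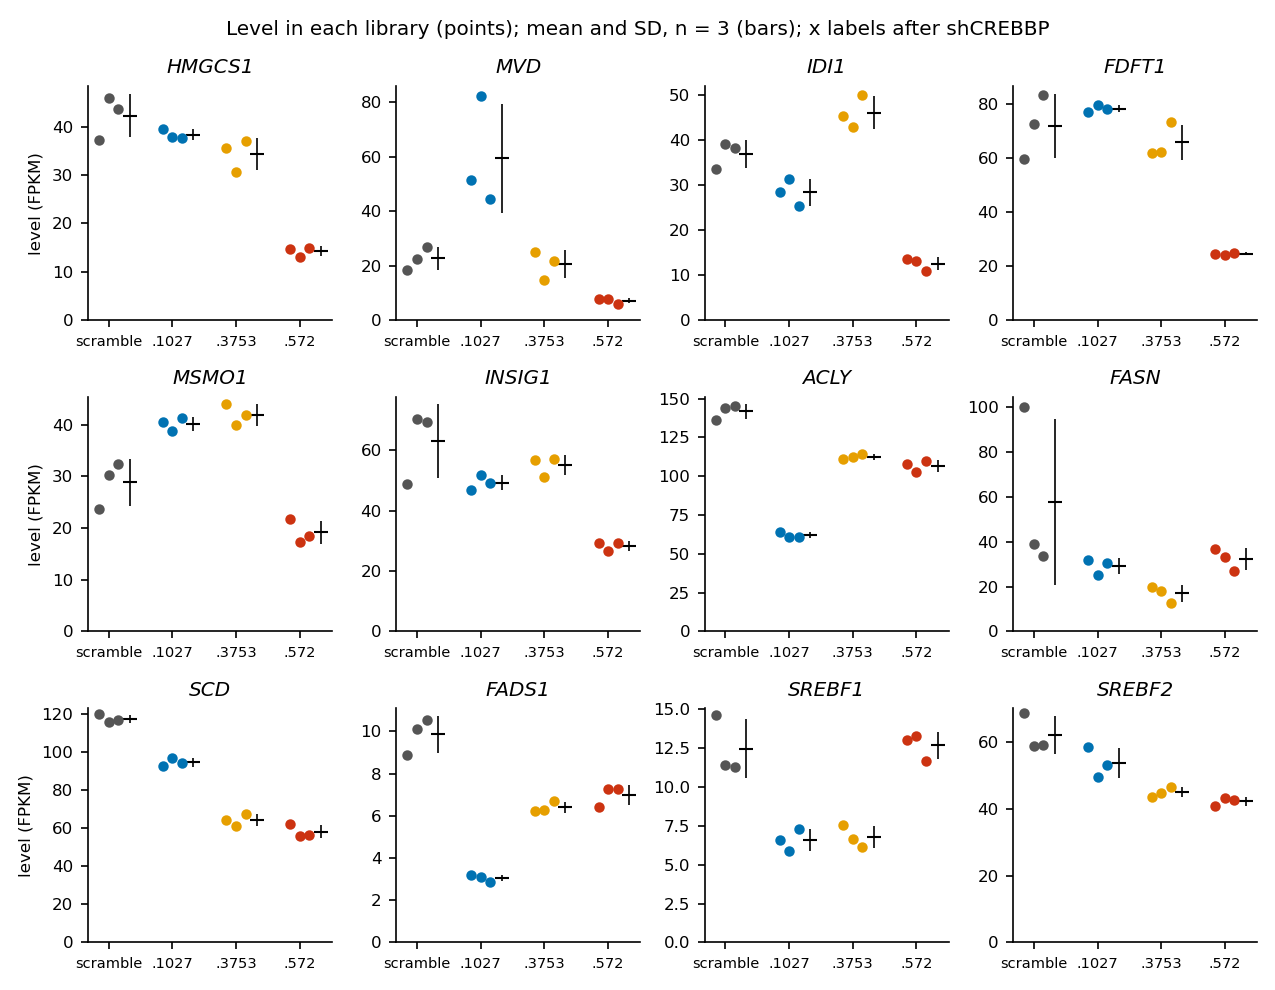
Level in FPKM of 12 genes in each library, from 0, with the mean and SD of 3 libraries beside the points; the axis gives the end of each hairpin name. The top row and INSIG1 are low with shCREBBP.572, ACLY and FADS1 are lowest with shCREBBP.1027, and 1 scramble library of FASN stands at 100.2 FPKM.

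Transport genes were called in both directions. STARD4, a carrier of cholesterol between membranes and a known SREBP-2 target, had means of 11.4 ± 2.51 FPKM with scramble and 6.44 ± 0.202 with shCREBBP.572 (SD, n = 3 each), a difference of -0.72 ± 0.13 (adjusted p = 0.00242), and was not called with the other hairpins (-0.16 and 0.03). ABCA1 (chromosome 9, 107543284 to 107690527), the cholesterol efflux pump and a target of the oxysterol receptors LXR, held 1.58, 1.07 and 0.809 FPKM with scramble, 1.17, 1.07 and 0.939 with shCREBBP.1027, 3.07, 2.37 and 2.46 with shCREBBP.3753, and 4.07, 2.66 and 4.31 with shCREBBP.572. The last 2 hairpins lay above scramble and shCREBBP.1027 overlapped it. ABCA1 rose by 0.76 ± 0.19 (adjusted p = 0.0118) and 1.12 ± 0.19 (adjusted p = 0.00199), against -0.05 ± 0.19 with shCREBBP.1027. When the rows that carry its name were summed, the rise with shCREBBP.3753 was no longer called (0.51, adjusted p = 0.0569), ABCA1 became higher with shCREBBP.1027 (0.79, adjusted p = 0.00571) and the direct difference between these hairpins went from 0.81, called, to -0.28, not called. The order of these hairpins depends on which row with the name ABCA1 is read. Whether the weaker rows hold transcripts of the gene is not given in the sources used here. NPC1, which exports cholesterol from lysosomes, was not called against scramble (-0.20, 0.20 and 0.20), but it was higher with shCREBBP.3753 and with shCREBBP.572 than with shCREBBP.1027, by 0.40 ± 0.08 in each pair (adjusted p = 0.00155 and 0.00149). NR1H2, which encodes LXR beta, was not called with any hairpin (0.30, 0.15 and 0.07).

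Genes around these pathways were read from 4 further lists. Of 20 genes for fatty acid supply, elongation and oxidation, 8 were lower and 1 higher with shCREBBP.1027, 1 and 6 with shCREBBP.3753, and 4 and 3 with shCREBBP.572. Of 19 genes for SREBP processing and turnover, 5 were lower and 3 higher, 2 and 4, and 3 and 2, in the same order of hairpins. Of 18 genes for sterol transport, storage and the LXR response, 6 were lower and 3 higher, 2 and 5, and 4 and 0. Of 14 genes that use isoprenoids, 4 were lower and 1 higher, 1 and 2, and 2 and 1. The shares called lower and higher over the whole table were 22.7% and 16.5% with shCREBBP.1027, 13.2% and 16.1% with shCREBBP.3753, and 10.8% and 8.99% with shCREBBP.572, and several of these list counts are near those shares. The median differences of the lists lay between -0.26 and 0.11. DHDDS, RABGGTB, FNTB and RCE1 of the isoprenoid list and LPCAT3 of the sterol transport list share their rows with other genes. Their values cannot be told apart from those genes. RXRA, in the sterol transport list, was tested through scramble replicate 3 alone, at 13.6 FPKM, with 0 in every other library.

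From each of these lists the called gene with the largest difference is named for each hairpin. With shCREBBP.1027 these were SLC25A1, the mitochondrial citrate carrier that feeds ACLY (-1.13 ± 0.11), SEC24D, a coat protein of vesicles that leave the endoplasmic reticulum (-0.63 ± 0.06), SCARB1, the HDL receptor (-1.23 ± 0.12), and RABGGTA, a subunit of the geranylgeranyl transferase of Rab proteins (-0.69 ± 0.10). With shCREBBP.3753 they were HADHB, a mitochondrial enzyme of fatty acid oxidation (0.60 ± 0.09), SYVN1, a ubiquitin ligase of the endoplasmic reticulum (-0.72 ± 0.22), LBR, the lamin B receptor and a sterol C14 reductase (-0.85 ± 0.08), and SRD5A3, a polyprenol reductase (0.64 ± 0.11). With shCREBBP.572 they were HSD17B12, the ketoacyl reductase of fatty acid elongation (-1.14 ± 0.12), SYVN1 (-1.07 ± 0.22), SCARB1 (-0.83 ± 0.12) and ICMT, the methyltransferase of prenylated proteins (-1.47 ± 0.11). The largest limma adjusted p among these 12 differences was 0.027.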

How the data were processed

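Levels came from 1 table deposited by the authors, with a value per assembled locus and library in 12 libraries. The values were read as FPKM because, per the submitters' processing notes, Cufflinks was used, with CASAVA 1.8, TopHat2 and hg19; the table states no unit. Neither the annotation nor the use of strand is stated in the sources used here, so overlapping, antisense and near-identical genes are uncertain; several names stand on 725 rows. Reads per library are unknown, and 4.01% to 9.84% of low-value ratios lay on a whole-read step, so no count test was run. Values were tested as log2(FPKM + 1), which understates changes of low genes, over the 11757 rows whose mean reached 1. A limma 3.58.1 model (R 4.3.3) had 4 group means and a variance trend, with Benjamini-Hochberg adjustment per contrast and a threshold of 0.05; no scaling was added. The test was checked on simulated data. The genes and lists were chosen with earlier results of these data known, so counts over them are descriptions. Values in each library are given for the 5 largest called differences per hairpin, genes called in opposite directions, the 3 smallest p per pair of hairpins, and SREBF1, SREBF2, INSIG1, INSIG2, FASN and SCD. Promoters are RefSeq windows on GRCh38.p14, and for 29 of 31 genes the bases after the start were found in a transcript of the gene. Alternatives are other filters, scalings, pseudocounts, models and left-out libraries. A gene of a related list is not reported here.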

Additional observations from a re-analysis of the deposited data

Results flagged for a closer look

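In 4 genes the response to 2 hairpins was called in opposite directions and the direct difference between those hairpins was called too. The direct call follows almost of itself from opposite calls against the same scramble libraries, so it adds no support. The share of all rows with opposite calls was not computed. The call of IDI1 as higher with shCREBBP.3753 held under 8 of 23 alternatives. Each MVK call held under 17 of 23, and each MVD call under all 23. MVK differed by -1.18 between shCREBBP.572 and shCREBBP.1027, and MVD by -2.83. IDI1 differed by 0.68 between shCREBBP.3753 and shCREBBP.1027 and by -1.79 between shCREBBP.572 and shCREBBP.3753. MSMO1 differed by -1.04 between shCREBBP.572 and shCREBBP.1027 and by -1.09 between shCREBBP.572 and shCREBBP.3753.

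Second, weaker rows that carry the name of a gene were higher with shCREBBP.1027 while the main row was not. The other row of IDI1 was higher by 1.42, with 0.484, 0.531 and 0.414 FPKM in scramble and 3.06, 3.06 and 2.74 FPKM with shCREBBP.1027, where the main row was lower. The other row of ELOVL6 was higher by 1.25, with 0.541, 0.876 and 1.14 FPKM in scramble and 3.30, 3.05 and 3.76 FPKM with shCREBBP.1027, where the main row was again lower. A further row of ABCA1 was higher by 1.18, with 2 of the 3 scramble libraries listed at 0. Another weaker row of ABCA1 was tested and not called (0.72, limma adjusted p = 0.222). The rows are listed because they were called higher with shCREBBP.1027. Those of IDI1 and ABCA1 reached the mean of at least 1 FPKM only with the shCREBBP.1027 libraries counted, so their calls are a description and no support. These rows share the interval of the main row, and what transcript they hold is not given in the sources used here.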

How the results depend on the processing

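Under 24 settings, 45 gene differences gave 1034 alternative values. Of these, 989 kept their side of the threshold, 35 lost the call and 10 gained it. A change of sign was counted only where the value was called as reported or in the alternative, and 0 were found. Values called in neither could change sign and count as kept, as SREBF1 did with shCREBBP.572 (0.03 as reported, -0.03 at its lowest). By this rule 33 of the 45 were the same throughout. Of 460 counts, 403 stayed within 1.5 times. Called differences that held under every alternative were 17 of 22 with shCREBBP.572, 9 of 16 with shCREBBP.1027 and 8 of 13 with shCREBBP.3753. Where a count moved, the cause was not tested. Sterol genes lower with shCREBBP.3753 (2 as reported) were 0 with no filter or with 2 groups in the fit, 1 with no variance trend, 4 with quantile normalization and 8 with array weights; sterol genes higher with it (3) were 1 with no filter, no trend or 2 groups. The 1 sterol gene higher with shCREBBP.572 became 0 with no filter, median of ratios scaling, no trend or 2 groups. Fatty acid genes lower with shCREBBP.1027 (5) were 3 with quantile normalization. Genes lower with shCREBBP.3753 than with shCREBBP.1027 (5) were 9 with quantile normalization, median of ratios scaling or 2 groups and 11 with array weights. In the mean of the hairpins, 2 higher became 1 with no filter or a mean of at least 5. With the 9 libraries as 1 group, 17 lower and 2 higher became 1 and 0. Over all rows that change was from 1711 lower and 1349 higher to 105 and 101. Leaving out 1 library at a time gave 2 to 5 sterol genes lower with shCREBBP.1027, 0 to 6 lower and 1 to 2 higher with shCREBBP.3753, 0 to 1 higher with shCREBBP.572, 0 to 2 genes higher in the mean, 3 to 10 lower between shCREBBP.3753 and shCREBBP.1027, and 1 to 4 higher between shCREBBP.572 and shCREBBP.3753. Replicate numbers were shared between groups, but the labels give no pairing and 2 of 18 same-numbered pairs correlated above 0.1 in their deviations (-0.06 to 0.127, mean 0.03; differently numbered -0.20 to 0.128, mean -0.02). The best match in another group had the same number in 20 of 36 cases, where chance gives 12, a hint from the data and not the design. With the replicate block, sterol genes lower with shCREBBP.3753 were 1, sterol genes higher with shCREBBP.572 were 0, and FASN with shCREBBP.1027 was called (-0.79, limma adjusted p = 0.0311).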
